A study of Mus musculus with 59 samples.

Results

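The transcription factors of naive pluripotency, the state of the preimplantation inner cell mass, were followed in single mouse epiblasts of the early postimplantation embryo that lacked either G9a or EZH2. The 10 genes were Nanog, Esrrb, Klf2, Klf4, Klf5, Tbx3, Zfp42, Tfcp2l1, Nr0b1 and Nr5a2, chosen by symbol from the 22134 annotated genes with a listed transcript. Each gene was represented by its transcript with the highest mean raw count over the 14 epiblasts, and a transcript missing from a table was read as a count of 0. The level of each gene in each epiblast, and the change between control and knockout epiblasts, were the 2 quantities of interest.

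All 14 samples were individual epiblasts of mixed genetic background collected at E6.25 (days after mating, before gastrulation). G9a, encoded by Ehmt2, places the repressive H3K9me2 mark, and EZH2 is the catalytic subunit of PRC2, which places H3K27me3. The Ehmt2 cross gave 4 control (G9a+/+) and 4 knockout (G9a-/-) epiblasts, and the Ezh2 cross gave 3 control (Ezh+/+) and 3 knockout (Ezh-/-) epiblasts. The sample labels give every control as wild type, whereas the study's methods also count heterozygous littermates as controls. The embryos came from matings of heterozygous mice, so extraembryonic tissue of a knockout embryo lacked the gene too. The Ehmt2 mice had been bred to a ΔPE-Pou5f1-EGFP reporter line. Its transgene drives EGFP in the preimplantation inner cell mass, and fluorescence left over from that stage is still seen in the early epiblast.

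Naive pluripotency rests on a network in which Nanog, Esrrb, Tfcp2l1, Tbx3 and the Klf factors maintain one another's transcription together with Oct4 and Sox2, and in culture is held by LIF, which acts through its receptor on Stat3. Around implantation most of these factors are switched off as the epiblast turns to the primed state, while Oct4 and Otx2 stay on and Nanog is expressed again in the postimplantation epiblast. Several of them have a second site of expression at this stage, since Esrrb and Klf5 are known from the trophoblast lineage, including extraembryonic ectoderm, which lies next to the epiblast.

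Upstream sequences are shown for Nanog, the member with the highest level in these epiblasts, for Esrrb, the only member called in a cross, and for Zfp42, a reporter gene of the naive state. They are the 250 bases before a RefSeq transcription start (GRCm38.p6), 5′ to 3′ on the gene's strand, in lower case. Capitals mark matches to the Oct4-Sox2 composite element (TTTGCAT and ACAATG with any 1 base between them), the octamer ATTTGCAT and the Klf-type element CCACACCC. The Nanog sequence lies at chr6:122707315-122707564 on the + strand, the Esrrb sequence at chr12:86421394-86421643 on the + strand, directly before the start of the transcript analysed, and the Zfp42 sequence at chr8:43307010-43307259 on the − strand.
Nanog: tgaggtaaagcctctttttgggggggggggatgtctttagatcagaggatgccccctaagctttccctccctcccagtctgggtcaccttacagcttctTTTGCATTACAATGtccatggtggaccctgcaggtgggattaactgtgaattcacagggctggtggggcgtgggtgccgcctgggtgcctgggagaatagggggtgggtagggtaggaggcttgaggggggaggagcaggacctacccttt
Esrrb: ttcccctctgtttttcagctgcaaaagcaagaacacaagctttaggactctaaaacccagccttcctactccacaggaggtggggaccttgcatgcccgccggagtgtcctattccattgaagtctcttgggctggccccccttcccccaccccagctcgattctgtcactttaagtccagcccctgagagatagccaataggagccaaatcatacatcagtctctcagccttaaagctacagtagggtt
Zfp42: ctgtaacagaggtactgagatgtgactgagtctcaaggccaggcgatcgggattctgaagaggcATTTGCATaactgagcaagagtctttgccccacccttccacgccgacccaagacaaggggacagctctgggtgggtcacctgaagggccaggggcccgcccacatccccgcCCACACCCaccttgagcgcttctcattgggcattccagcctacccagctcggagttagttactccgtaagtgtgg
RefSeq upstream sequences were found for 8 of the 10 members (11 sequences, because Nanog, Esrrb and Nr5a2 have more than 1 listed start). The composite element was present in 2 of the 32851 upstream sequences of this length searched (0.00609%), and both belonged to Nanog, whose overlapping windows hold the same match. The octamer and the CACCC element each had 1 match among the members, both in Zfp42, against 1.60% and 3.20% of all upstream sequences. Neither the Esrrb element TCAAGGTCA nor the Stat3 palindrome TTCCNGGAA had a match in the 11 sequences, and they were found in 0.387% and 0.913% of all. All elements were searched on both strands, and the octamer can overlap the composite element by its TTTGCAT.

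A primer pair of the study was directed at a distal element that it named the Esrrb enhancer, and primers for elements of the other members were not searched. The pair is shown because it places the element that was assayed for chromatin marks within the Esrrb gene itself.
Esrrb enhancer forward: AGGTTTGAATGGGACAGGAG
Esrrb enhancer reverse: GATTGCACATCAAGGACTGG
The primers matched chr12:86502215-86502234 on the + strand and chr12:86502263-86502282 on the − strand of GRCm38.p6. The amplicon of 68 bases lay in intron 3 of the 6 introns of the Esrrb transcript analysed, ENSMUST00000110204. Chromatin data for this element were not used here.

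Total counts over all transcripts ran from 30161171 to 68464895 per epiblast, and a level is given as CPM, the usual depth-scaled count, with libraries scaled by TMM. A count of 0 allows up to 3 counts, which corresponded to between 0.0501 and 0.0931 CPM per library, and such limits cover counting error only. The deleted genes followed the labels. Ehmt2 was at 10.5, 11.2, 15.8 and 34.0 CPM in its controls and at 4.83, 4.54, 3.29 and 9.78 CPM in its knockouts, and Ezh2 was at 51.6, 64.9 and 108 CPM in its controls and at 11.4, 11.6 and 16.0 CPM in its knockouts. Which exons were deleted is not resolved by these counts. The epiblast markers Pou5f1 and Otx2 were at 81.2 CPM or more in all 14 samples. Replicate 4 of both Ehmt2 genotypes stood apart from replicates 1 to 3, and the model of that cross carried a term for the comparison set (replicates 1 to 3, or replicate 4), because the study's source data set knockout 4 against control 4 alone, although its methods describe each knockout as compared with all controls.

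In the 7 control epiblasts the naive factors were low, with the exception of Nanog. Levels were compared between genes per kb of transcript, as CPM per kb. Nanog, a homeodomain factor, had a median of 14.4 CPM per kb (range 9.28 to 20.3), which was 25.1 times the median of the next gene, and its range did not overlap that of any other member. Tbx3, a T-box factor, followed at 0.572, the zinc finger factor Klf5 at 0.459, Zfp42 (Rex1) at 0.370, Tfcp2l1, a CP2-family factor, at 0.292 and Klf4 at 0.254 CPM per kb, each with a range over controls that overlapped its neighbour's. The lowest 4 were Esrrb, an orphan nuclear receptor, at 0.0340, Klf2 at 0.0307, Nr0b1 (Dax1) at 0.0296 and Nr5a2 (Lrh1) at 0.0272 CPM per kb, which were not separated from each other by their ranges. The raw counts behind these values were 1 to 25 for Esrrb, 0 to 8 for Klf2, 0 to 7 for Nr0b1 and 0 to 17 for Nr5a2, so that the order among them was not resolved at this depth.

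**Figure D1:**
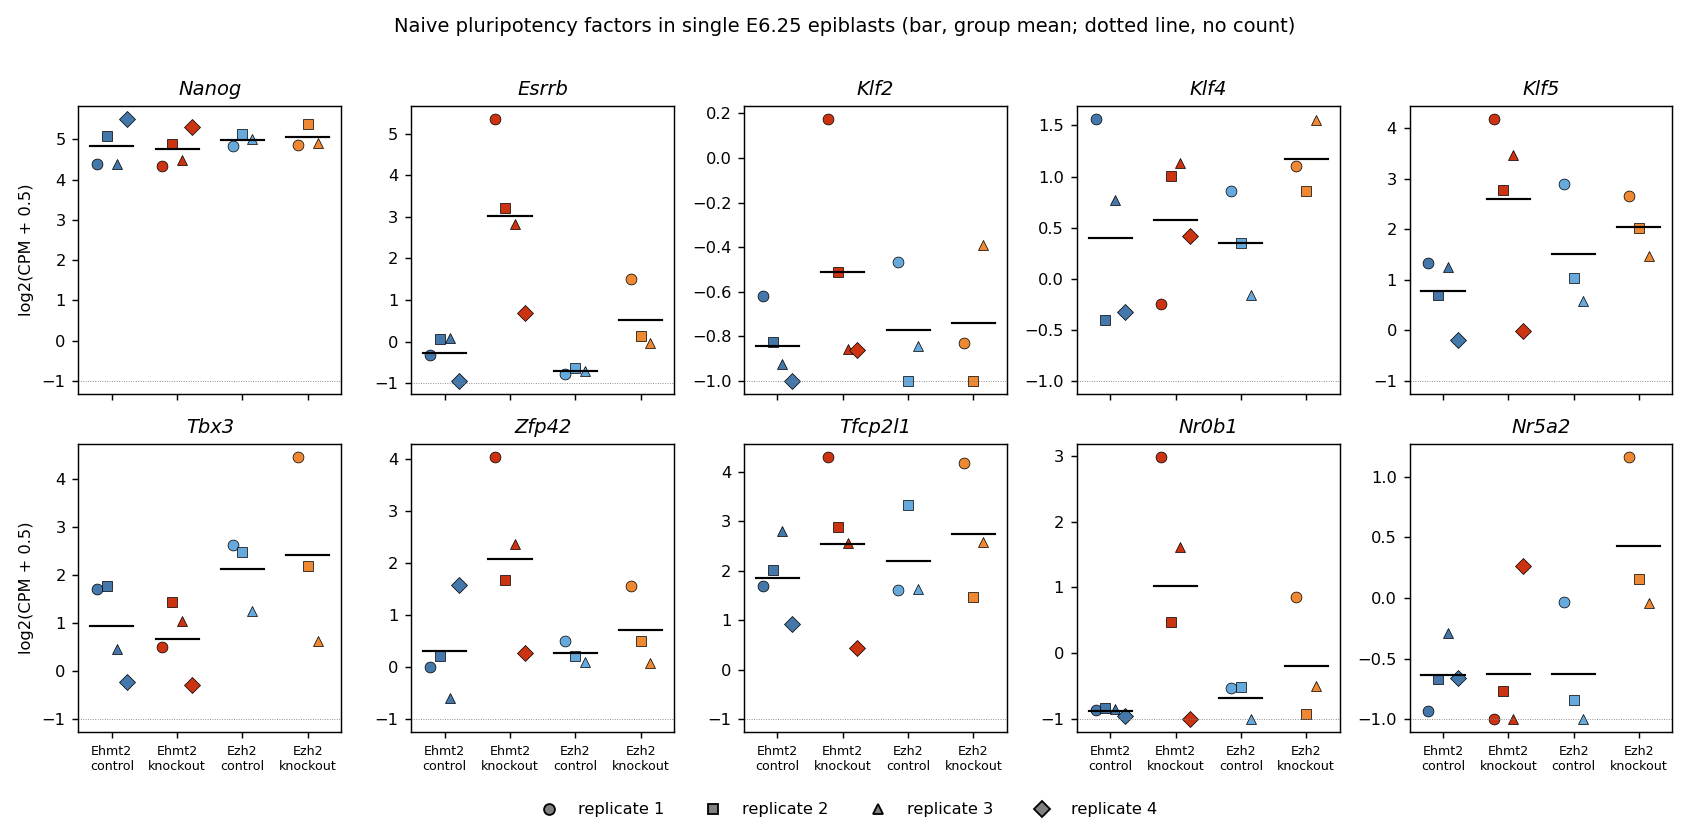
Levels of the 10 naive factors in the 14 epiblasts. Each panel is a gene, the y axis is log2(CPM + 0.5), symbols are single epiblasts with the replicate number given by shape, bars are group means, and the dotted line is the value of a count of 0; the y axis differs between panels. Esrrb is the member whose knockouts lie above every control in both crosses, and Nanog is high in all 14.

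The first question was whether loss of G9a left naive factors switched on. Esrrb was the only 1 of the 10 members called higher in Ehmt2-/- epiblasts, and none was called lower, where called means an adjusted p below 0.05 and a log2 fold change beyond 1.4 (edgeR quasi-likelihood test, Benjamini-Hochberg over 49872 transcripts). Over all transcripts tested, 0.441% were called higher and 0.0581% lower. Klf2, Nr0b1 and Nr5a2 did not pass the filter on low counts in this cross. On the scale of mean log2(CPM + 0.5), 8 of the 10 members, filtered or not, were higher in the knockouts, with a median difference of 0.51. Over all 49872 transcripts tested the median was -0.01, and 24502 were higher.

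Esrrb was measured at 0.300, 0.536, 0.561 and 0.0187 CPM in Ehmt2 controls 1 to 4 and at 40.5, 8.84, 6.57 and 1.12 CPM in knockouts 1 to 4. Every knockout lay above every control for the transcript analysed, though not for its shorter isoforms, of which knockout 4 had no count. The knockouts differed among themselves more than the controls did, with knockout 1 the highest. The corresponding raw counts were 12, 25, 21 and 1 in the controls and 1416, 306, 252 and 67 in the knockouts. The mean was 0.354 ± 0.253 CPM (SD, n = 4) in controls and 14.3 ± 17.8 CPM (SD, n = 4) in knockouts. The fitted log2 fold change was 5.33 ± 0.63 (SE, edgeR quasi-likelihood test, adjusted p = 0.0031), and the two-sided exact permutation p was 0.0286, the smallest that 4 against 4 allows. Knockouts above all controls were seen for 2.55% of all transcripts tested in this cross. Control 4, with 1 count, fell short of the filter, which Esrrb therefore passed only with its knockouts counted. The separation and these tests are thus not independent of that selection. Without the term for the comparison set the adjusted p of the edgeR quasi-likelihood test was 0.136 at a log2 fold change of 5.34, so the call rests on that term.

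Each knockout was also taken alone. A gene was called by this rule when every knockout passed a log2 fold change of 1.4 and the p-values combined by Fisher's method were below 0.05. The rule follows the study's in these limits, but knockouts were set against the controls of their comparison set and the study's minimum level in each knockout was not applied. For Esrrb the 4 log2 fold changes were 6.42, 4.24, 3.80 and 5.70, of which the last rests on control 4 alone, with its 1 count. Set against all 4 controls they were 6.86, 4.67, 4.23 and 1.66, and Esrrb passed again, as did 0.485% of transcripts in the upward direction. No other member passed this rule in the Ehmt2 cross, and 0.59% of transcripts passed it in the upward direction. Zfp42 and Klf5 passed the fold limit in knockouts 1 to 3 but not in knockout 4, where their values were -1.82 and 0.37.

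The transcript tables also resolved where along the Esrrb gene the counts fell. Transcript ENSMUST00000110204 (chr12:86421644-86521625, + strand, 4196 bases, 7 exons) shares its exons 2 to 7 with a second long transcript that starts further upstream, and both had the same count in 10 of the 14 epiblasts, so reads on shared exons were counted for more than 1 transcript and the choice between the starts could not be read from them. The 4 shorter isoforms together cover every base of the long transcript except the last 1825 bases of its last exon (chr12:86519801-86521625), which are 3′ untranslated. The count of the protein-coding isoform that ends before this stretch was 594 of 1416 in Ehmt2 knockout 1 (41.9%, exact 95% binomial interval 39.4 to 44.6%), 158 of 306 in knockout 2 (51.6%) and 129 of 252 in knockout 3 (51.2%). In knockout 4 it was 0 of 67, with an upper limit of 5.36%, and the other 3 shorter isoforms were at 0 too. All 67 Esrrb counts of knockout 4 were therefore listed on the long transcripts alone, a distribution shown by no other knockout epiblast of either cross. On the isoform that ends before the last 1825 bases, Ehmt2 controls 1 to 4 had 7, 15, 8 and 0 counts. Knockout 4, at 0, did not lie above them, so the separation of all 4 knockouts from the controls holds for the long transcripts only.

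**Figure D2:**
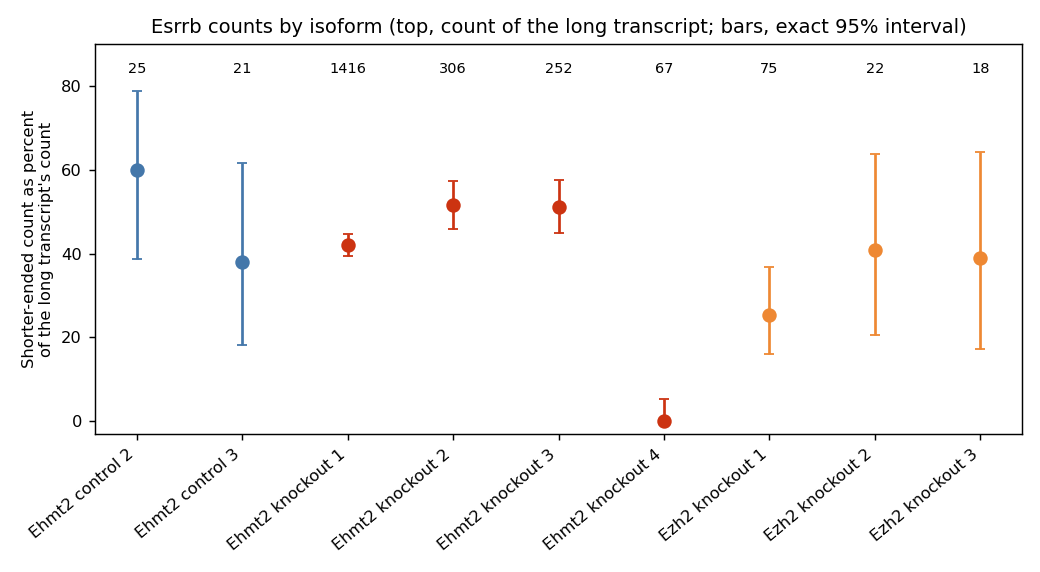
Count of a shorter Esrrb isoform relative to the long transcript. This isoform alone does not cover every base before the distal 3′ untranslated stretch, so the percent is not the share of counts outside it. The y axis is the count of the isoform that ends before the last 1825 bases, as a percent of the count of the long transcript, in the epiblasts with at least 18 counts (numbers at the top); bars are exact 95% binomial intervals. Ehmt2 knockout 4 is at 0% of 67 counts, whereas Ehmt2 knockouts 1 to 3 lie between 41.9% and 51.6%.

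Of the 3 Klf factors, zinc finger proteins that can stand in for one another in embryonic stem cells, Klf5 came nearest to a call. Klf5 was at 2.00, 1.12, 1.90 and 0.375 CPM in Ehmt2 controls and at 17.6, 6.33, 10.5 and 0.484 CPM in knockouts. Knockouts 1 to 3 lay above every control, while knockout 4 fell within the range of the controls. Its log2 fold change was 2.31 ± 0.47 (SE, edgeR quasi-likelihood test, adjusted p = 0.0526), which missed the threshold. The adjusted p was 0.0068 with replicate 4 of both genotypes left out, 0.0467 with 1 transcript per gene (0.748% of transcripts called higher) and 3.4e-05 by DESeq2 (1.09% called higher), but 0.428 without the term for the comparison set, 0.114 with summed transcripts, and between 0.176 and 0.188 without control 1, 2 or 3, so this member was called under some settings only. Klf4 was at 0.257 to 2.45 CPM in controls and 0.343 to 1.69 CPM in knockouts, and its log2 fold change was 0.24 ± 0.72 (edgeR quasi-likelihood test, adjusted p = 0.935). Klf2 reached 22 counts at most, in knockout 1 (0.629 CPM), and the exact permutation p of its level was 0.229.

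Zfp42, a zinc finger protein that is lost early in the exit from the naive state, was at 0.501, 0.665, 0.160 and 2.49 CPM in controls and at 15.9, 2.72, 4.67 and 0.701 CPM in knockouts. The 2 comparison sets went in opposite directions, since control 4 was the highest control and knockout 4 the lowest knockout. The log2 fold change over all 8 epiblasts was 3.02 ± 1.10 (edgeR quasi-likelihood test, adjusted p = 0.297), and over replicates 1 to 3 it was 4.10 ± 0.68 (adjusted p = 0.0168). Nr0b1, an X-linked orphan receptor without a DNA-binding domain of the usual kind, had 2, 3, 2 and 1 counts in controls and 258, 31, 98 and 0 counts in knockouts. Knockouts 1 to 3 thus stood at 7.37, 0.896 and 2.56 CPM against at most 0.0644 CPM in the controls, and knockout 4 had no count, which allows 3 counts or 0.0501 CPM. Nr0b1 did not pass the filter in this cross. In the same fit without a filter, which called 0.56% of transcripts higher, its log2 fold change was 5.43 ± 0.99 (edgeR quasi-likelihood test, adjusted p = 0.0123), and in replicates 1 to 3, where it passed the filter through its knockouts, it was 5.92 ± 0.83 (adjusted p = 0.0074). The adjusted p was 0.0862 in the fit over all 14 epiblasts and between 0.176 and 0.188 without control 1, 2 or 3. With replicate 4 of both genotypes left out, Esrrb, Klf5 and Zfp42 were called higher beside Nr0b1, where 0.771% of transcripts were.

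The remaining members were not called in the Ehmt2 cross. Tfcp2l1, a target of Stat3, was at 1.41 to 6.49 CPM in controls and at 19.1, 6.82, 5.37 and 0.851 CPM in knockouts 1 to 4, with a log2 fold change of 0.85 ± 0.49 (edgeR quasi-likelihood test, adjusted p = 0.539). Tbx3 was at 0.356 to 2.90 CPM in controls and 0.317 to 2.20 CPM in knockouts (log2 fold change -0.41 ± 0.48). Nanog differed by less than the spread between epiblasts, at 20.6, 33.3, 20.5 and 45.0 CPM in controls and 19.7, 29.1, 21.8 and 39.3 CPM in knockouts (log2 fold change -0.11 ± 0.19, edgeR quasi-likelihood test, adjusted p = 0.878). Nr5a2, which binds regulatory elements of Oct4, had at most 12 counts in any control and in knockouts 1 to 3, and 42 counts (0.701 CPM) in knockout 4. Knockout 1 was the highest of the 8 epiblasts for 6 of the 10 members.

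**Figure D3:**
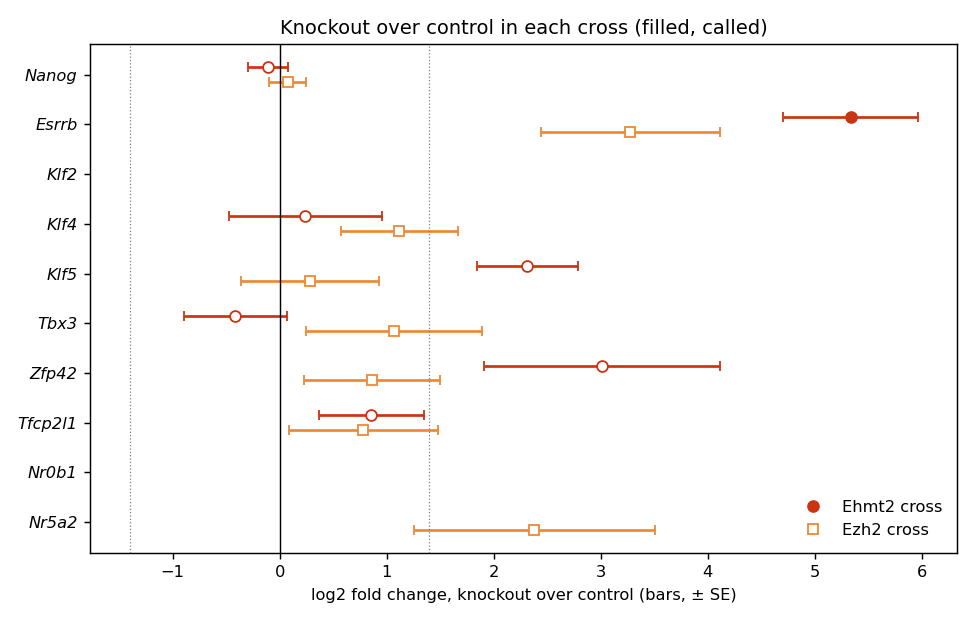
Fitted log2 fold change of knockout over control for each member, by cross, with bars of ± 1 SE; dotted lines mark a log2 fold change of 1.4 either way. The filled symbol is the call, Esrrb in the Ehmt2 cross at 5.33, and genes without a symbol (Klf2 and Nr0b1 in both crosses, Nr5a2 in the Ehmt2 cross) did not pass the filter on low counts.

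The same comparison was made for loss of EZH2. None of the 10 members was called in Ezh2-/- epiblasts by the edgeR quasi-likelihood test, in which 0% of 50855 transcripts were called higher and 0.0118% lower, and none was called by DESeq2, which called 0.301% of transcripts higher. At an unadjusted p below 0.05, 1 member (Esrrb) was higher, as were 4.05% of transcripts. Klf2 and Nr0b1 did not pass the filter, and Esrrb passed it only through its knockouts. All 10 members had a higher mean log2(CPM + 0.5) in the knockouts, with a median difference of 0.52 against 0.01 over all transcripts tested. Of these 50855 transcripts, 25929 were higher. The 10 include the members that did not pass the filter, and the difference was only 0.03 for Klf2 and 0.06 for Nanog. In addition, 3 samples a group limit what this cross can show, since the smallest two-sided exact permutation p is 0.1.

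Esrrb was at 0.0840, 0.143 and 0.113 CPM in Ezh2 controls 1 to 3 (3, 5 and 4 counts) and at 2.33, 0.589 and 0.472 CPM in knockouts 1 to 3 (75, 22 and 18 counts). As in the Ehmt2 cross, no knockout overlapped a control, a pattern shared by 6.43% of all transcripts tested in the Ezh2 cross. With at most 5 counts in a control, Esrrb passed the filter here through its knockouts. The separation and the tests that follow are therefore not independent of that selection. The log2 fold change was 3.28 ± 0.84 (SE, edgeR quasi-likelihood test, adjusted p = 0.437), and the exact permutation p was 0.1. By the rule on single knockouts Esrrb passed, at log2 fold changes of 4.32, 2.34 and 2.03, as did 0.57% of transcripts in the upward direction, and no other member did.

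Among the other members, Tbx3, Tfcp2l1 and Klf5 changed direction when knockout 1 was left out, while Klf4 and Nr5a2 did not when any single knockout was. Knockout 1 was the highest of the 6 epiblasts for 6 of the 10 members. Tbx3 was at 5.65, 5.05 and 1.87 CPM in controls and at 21.3, 4.04 and 1.05 CPM in knockouts, so that knockout 1 lay above and knockout 3 below every control (log2 fold change 1.07 ± 0.82). Tfcp2l1 was at 2.55, 9.58 and 2.58 CPM in controls and 17.5, 2.28 and 5.48 CPM in knockouts (0.78 ± 0.70). Without knockout 1 the log2 fold changes of Tbx3, Tfcp2l1 and Klf5 were -0.72, -0.34 and -0.12. Nr5a2 had 17, 2 and 0 counts in controls and 56, 23 and 18 in knockouts; knockouts 1 and 2 lay above every control and knockout 3 level with control 1 (0.472 against 0.476 CPM), with a log2 fold change of 2.38 ± 1.13 (edgeR quasi-likelihood test, adjusted p = 0.728). Klf4 gave 1.12 ± 0.54, Zfp42 0.86 ± 0.64, Klf5 0.29 ± 0.65 and Nanog 0.08 ± 0.17 on the log2 scale, with adjusted p-values of 0.738, 0.842, 0.959 and 0.959. Nr0b1 was at no more than 8 counts in any epiblast of this cross except knockout 1, with 42 counts.

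The effects in the 2 crosses were then compared directly, in 1 fit over all 14 epiblasts. No member differed between the crosses (0 of 10, with 9 tested; edgeR quasi-likelihood test), where 0.0326% of 55248 transcripts were called with a higher and 0.0235% with a lower effect of Ehmt2 loss; DESeq2 called none either, and 1 member (Klf5) had an unadjusted p below 0.05 with a higher effect of Ehmt2 loss, as had 3.81% of transcripts. For Esrrb the effect of Ehmt2 loss exceeded that of Ezh2 loss by 2.07 ± 1.12 on the log2 scale (edgeR quasi-likelihood test, adjusted p = 0.653). For Klf5 the difference was 2.02 ± 0.87 (adjusted p = 0.551), and for Nr0b1 it was 3.42 ± 1.77 (adjusted p = 0.635). The call of Esrrb in 1 cross and not in the other is therefore not a shown difference between the crosses.

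Markers of neighbouring tissues moved with the naive factors in some epiblasts. Of the 10 markers of extraembryonic ectoderm, 2 were called higher in Ehmt2-/- epiblasts, where 0.441% of all transcripts tested were. These were Elf5 (log2 fold change 6.03 ± 0.86, adjusted p = 0.0114) and Tfap2c (3.80 ± 0.57, adjusted p = 0.0119), both by the edgeR quasi-likelihood test. Both calls were lost when any of controls 1, 2 or 3 was left out (adjusted p between 0.0699 and 0.0799). They were lost too without the term for the comparison set (0.29 and 0.486). The lowest control had 0 counts for Elf5 and 1 for Tfap2c, so neither passed the filter on its controls alone. Elf5, a defining transcription factor of that tissue, was at 0.200, 0.450, 0.534 and 0 CPM in controls and at 60.9, 5.86, 12.3 and 0 CPM in knockouts 1 to 4. Cdx2, the other defining marker, was at 0.429 CPM or less in controls and at 6.52, 1.36, 1.17 and 0 CPM in knockouts. The summed level of the 10 markers was 40.3 to 141 CPM in Ehmt2 controls and 41.2 to 351 CPM in knockouts. The median of this sum was 69.7 CPM among the controls and 130 CPM among the knockouts. Without Eomes and Ets2, which were named after their values were seen, the medians were 10.2 and 55.5 CPM. Both genes were detected in all 14 epiblasts, but so were Fgfr2, Gata3 and Ascl2, which were kept in the sum. The groups still overlapped without Eomes and Ets2, with knockout 4 at 6.13 CPM.

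The summed level of the 9 epiblast markers was 2670 to 3078 CPM in Ehmt2 controls and 1689 to 2543 CPM in knockouts, without overlap. Most of that sum was the marker Dnmt3b, with a mean of 1789 CPM in controls and 1267 CPM in knockouts. Averaged on the log2 scale, the 9 markers overlapped, at 6.50 to 6.78 in controls and 6.43 to 6.80 in knockouts. Knockout 1, the highest epiblast for Esrrb, Klf5, Zfp42, Nr0b1 and Tfcp2l1, was also the highest for Elf5 and Cdx2. In knockout 4 Elf5, Cdx2, Tfap2c, Hand1 and Wnt7b had no count, while the other extraembryonic ectoderm markers were detected. Control 4 had 3 of the 10 without a count. Without Eomes and Ets2 their summed level was 6.13 CPM in knockout 4 and 4.65 CPM in control 4. Ets2 was at 17.2 CPM or more in the knockouts and 14.2 CPM or less in the controls. Such a separation upward was seen for 2.55% of all transcripts tested in this cross. Esrrb, on its long transcripts alone, was at 1.12 CPM in knockout 4, against 0.0187 CPM in control 4 and 0.561 CPM in the highest control. The part of extraembryonic ectoderm RNA, or of the lower epiblast marker sum, in naive factor levels of knockouts 1 to 3 was not tested. In whole epiblasts a change in the number of expressing cells and in RNA per cell cannot be told apart. None of the 11 visceral endoderm markers was called in either cross, but 2 epiblasts of the Ezh2 cross, control 2 and knockout 1, had summed levels of 518 and 1101 CPM, against 8.51 to 61.0 CPM in the other 12. The defining markers Afp, Ttr and Amn were at 39.4, 29.5 and 5.08 CPM in that control and at 117, 74.6 and 8.35 CPM in that knockout. With both left out, the log2 fold change of Esrrb in the Ezh2 cross was 2.39 ± 1.11 (edgeR quasi-likelihood test, adjusted p = 0.814), and none of the 10 members was called. Of maternal tissue, Prl8a2, a decidual prolactin, reached 17.3 CPM and the globin gene Hba-a1 0.140 CPM at most.

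**Figure D4:**
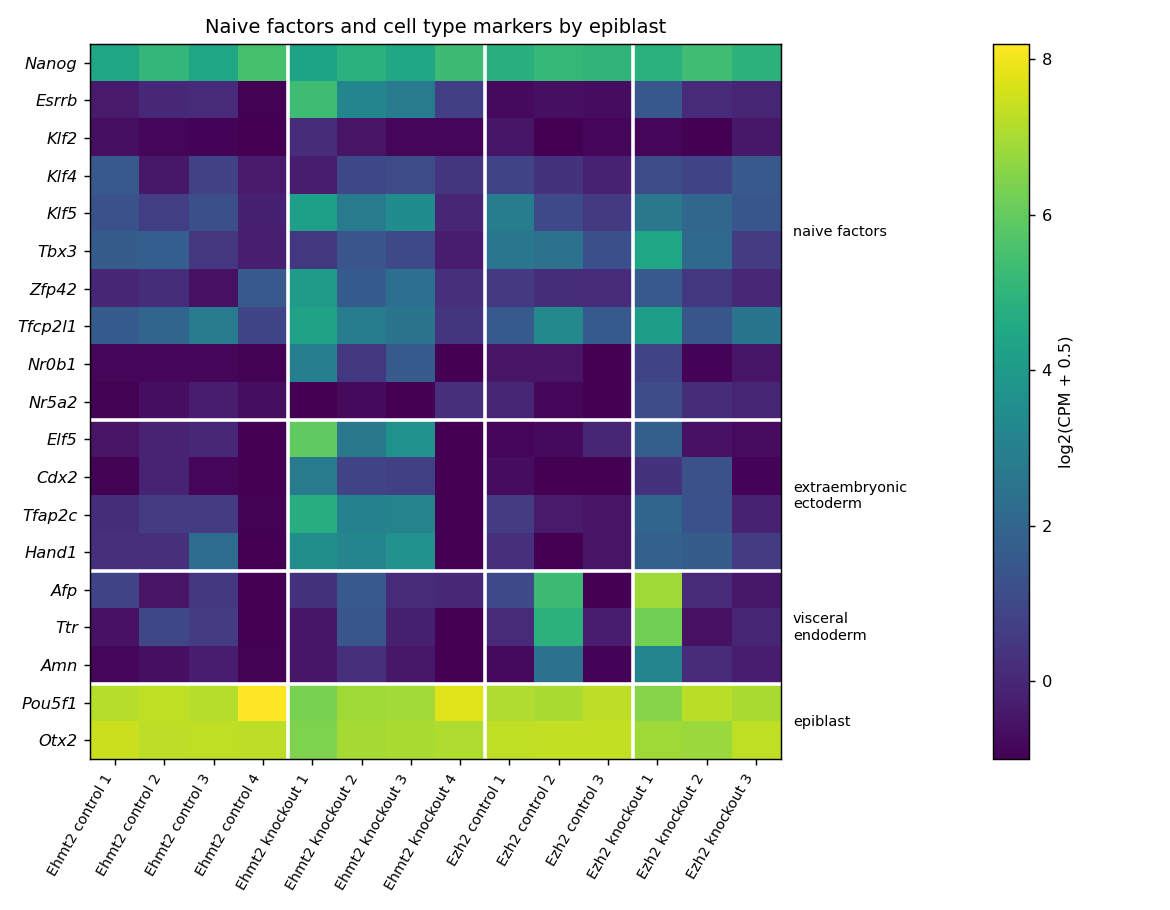
Naive factors and tissue markers in each epiblast. Columns are the 14 epiblasts by group, rows are genes, and colour is log2(CPM + 0.5), with white lines between groups and between gene lists. Ehmt2 knockout 1 is bright for Esrrb (40.5 CPM) and for Elf5 (60.9 CPM). Ehmt2 knockout 4 is dark for the extraembryonic ectoderm markers shown, which are only a part of that list. The visceral endoderm markers are bright in Ezh2 control 2 and knockout 1.

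Genes whose levels most resembled those of Esrrb over the 14 epiblasts were sought among 11714 genes with a mean of at least 1 CPM, the other members left out. The 5 nearest were Nup62cl (Pearson r = 0.976, Spearman rho = 0.908), Bmp4 (0.964 and 0.925), AU018091 (0.961 and 0.837), Elf5 (0.955 and 0.713) and Duoxa2 (0.954 and 0.766). With the 2 epiblasts farthest from the median of Esrrb left out, r was 0.947, 0.921, 0.918, 0.883 and 0.892. Bmp4, a ligand made by extraembryonic ectoderm, ran from 1.27 to 2.53 CPM in Ehmt2 controls and from 4.37 to 45.8 CPM in Ehmt2 knockouts, and from 1.25 to 1.51 CPM and from 3.35 to 8.88 CPM in those of the Ezh2 cross. Among the members, r with Esrrb was 0.843 for Zfp42, 0.754 for Klf5, 0.600 for Tfcp2l1, -0.01 for Klf4, -0.09 for Tbx3 and -0.50 for Nanog. Without the same 2 epiblasts it was 0.608 for Zfp42, 0.577 for Klf5 and 0.351 for Tfcp2l1, so much of the likeness of these members rested on those epiblasts. For Klf4 it rose to 0.380 and for Tbx3 to 0.136, and for Nanog it was -0.361. These are descriptions over n = 14 epiblasts that share libraries and genotype groups.

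None of the other genes listed around the naive network was called in either cross. Of a list of 20, covering the LIF pathway, further genes of naive cells and regulators of the exit from the naive state, 16 passed the filter in each cross, and the count of calls was 0 in both by edgeR and by DESeq2. For Stat3 and Lifr in the Ehmt2 cross DESeq2 gave adjusted p-values of 0.00028 and 0.00043, and their fold changes lay within the fold limit. At an unadjusted p below 0.05, 4 were higher and 1 lower in Ehmt2-/- epiblasts, and 2 were higher and 2 lower in Ezh2-/- epiblasts. Over all transcripts, 6.15% were higher and 5.62% lower at this limit in the Ehmt2 cross, and 4.05% and 2.97% in the Ezh2 cross. The median difference on the log2 scale was 0.02 in the Ehmt2 cross and 0 in the Ezh2 cross. In the LIF pathway, the transcription factor Stat3 was at 2.44 to 5.48 CPM in Ehmt2 controls and 6.14 to 10.1 CPM in knockouts. The log2 fold change was 1.10 ± 0.22 (adjusted p = 0.0535). All knockouts lay above all controls, as for 2.55% of all transcripts tested. The receptor subunit Lifr was at 17.4 to 29.6 CPM in Ehmt2 controls and 7.09 to 14.2 CPM in knockouts (-1.06 ± 0.22, adjusted p = 0.0598), all knockouts below all controls, as for 2.54% of all transcripts tested. In the Ezh2 cross the knockouts lay above the controls for Lifr, at 30.6 to 37.0 CPM against 19.4 to 24.5 CPM (0.59 ± 0.15, adjusted p = 0.437). The same separation was seen for 6.43% of all transcripts tested in that cross. All these tests are edgeR quasi-likelihood tests adjusted over all transcripts.

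Among the further genes of naive cells, Fbxo15, a target of Oct4 and Sox2, had the highest fold change of the list in the Ehmt2 cross (2.54 ± 1.03, adjusted p = 0.36), and Tet2, a 5-methylcytosine oxidase, was next to the lowest (-0.34 ± 0.35). In the Ezh2 cross the highest were Dppa3 (Stella; 1.05 ± 0.45, adjusted p = 0.691) and Stat3 (0.82 ± 0.50), and the lowest were Tcf7l1, a repressor of naive genes, and Rest, both at -0.41 and with every knockout below every control, as for 6.69% of all transcripts tested. Of the 9 epiblast markers 1 was called in the Ehmt2 cross, where 0.441% of all transcripts tested were called higher. This was Dppa4, a nuclear factor of pluripotent cells, at 1.61 to 3.15 CPM in controls and 6.68 to 14.3 CPM in knockouts. The log2 fold change of Dppa4 was 2.11 ± 0.31 (edgeR quasi-likelihood test, adjusted p = 0.0102). Its adjusted p was 0.0603 without the term for the comparison set and 0.0646 without control 3. None was called in the Ezh2 cross. On mean log2(CPM + 0.5), 6 of the 9 markers were lower in the Ehmt2 knockouts, with a median difference of -0.16. Every knockout lay below every control for Otx2 and Dnmt3b, as for 2.54% of all transcripts tested in this cross. The log2 fold change was -0.44 ± 0.13 for Otx2 (edgeR adjusted p = 0.208). For Dnmt3b, a DNA methyltransferase of the primed epiblast, it was -0.50 ± 0.12 (edgeR adjusted p = 0.0935). Fgf5, a marker of the primed epiblast, overlapped (-0.70 ± 0.14, edgeR adjusted p = 0.0548). In replicate 4 Dppa4 was at 6.68 CPM in the knockout and 1.71 CPM in the control.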

How the data were processed

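Single E6.25 epiblasts were dissected by the authors, RNA from each was amplified, and single-end reads were trimmed, aligned to GRCm38 with TopHat2 and counted per Ensembl transcript with HTSeq. The deposited values are these raw counts, 1 table per epiblast, with transcripts without a count left out. How reads shared by isoforms or strand were handled is not given in the sources used here. The tables of the 2 epiblasts of Ehmt2 replicate 4 hold a not-aligned entry (12.6% and 13.3% of their totals), which was left out. Of 72515 transcripts, 70021 (96.6%) matched GENCODE vM21, from which symbols, coordinates and lengths were taken. Chromatin and methylation samples were not analysed here.

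Counts were tested with edgeR (version 4.0.16, R 4.3.3; TMM, filterByExpr, glmQLFit and glmQLFTest), separately for each cross, with Benjamini-Hochberg adjustment over all transcripts tested; an SE was obtained from the fold change and the root of its F statistic. Calls needed an adjusted p below 0.05 and a log2 fold change beyond 1.4, the study's fold limit. The Ehmt2 fit carried a term for replicates 1 to 3 against replicate 4, since the study's source data set knockout 4 against control 4 alone (its methods state all controls), and crosses were compared in 1 fit over 14 epiblasts. Exact permutation tests were two-sided on mean log2(CPM + 0.5) and unadjusted. Alternatives were RLE factors, DESeq2 (1.42.0), no filter, 1 transcript per gene, summed transcripts, each epiblast left out, a replicate block, no comparison-set term, replicate 4 left out, all epiblasts in 1 fit and a rule on single knockouts; leaving out Ezh2 knockout 1 and control 2, and the rule on single knockouts against all controls, were added after seeing the data. The fits were tested on simulated data. Exact tests used scipy 1.17.1, figures matplotlib 3.10.9, and tables pandas 2.3.3 under Python 3.11.15.

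The members and lists were chosen with earlier results of these data known. Named genes were the 10 members, the deleted genes, listed genes called in a cross, the 2 highest and 2 lowest of the naive network list by fold change in each cross, the defining markers and the 5 genes most like Esrrb; Hand1, Wnt7b, Eomes, Ets2, Dnmt3b and Fgf5 were named after their values were seen. Epiblasts were separate embryos; no pair of replicate libraries agreed within sampling noise.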

Additional observations from a re-analysis of the deposited data

Results flagged for a closer look

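In groups of 4, an epiblast was singled out when its gap to the nearest other one, as a share of the group's range, exceeded Dixon's 95% critical value. Of 60 groups of named genes, 8 held such an epiblast, and chance gives about 1 in 20. Among the 10 naive factors this was met once, by Nr5a2 in Ehmt2 knockout 4, at 0.701 CPM (42 counts), against 0, 0.0867 and 0 CPM in knockouts 1 to 3. The others were Ehmt2 controls for Tet2 (control 4, 7.78 CPM), Fbxo15 (control 1, 2.30 CPM), Tcf7l1 (control 2, the lowest at 45.4 CPM), Pou5f1 (control 4, 293 CPM) and Cdx2 (control 2, 0.429 CPM), and Ehmt2 knockout 2 for the visceral endoderm markers Afp (2.48 CPM) and Ttr (2.28 CPM). Replicate 4 of the Ehmt2 cross thus accounts for 3 of the 8.

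Lifr, a subunit of the LIF receptor, went in opposite directions in the 2 crosses. All 4 Ehmt2 knockouts lay below and all 3 Ezh2 knockouts above the mean of their controls, and the difference between the crosses was -1.63 in mean log2(CPM + 0.5). In the fit over all 14 epiblasts the difference was -1.65 ± 0.29 (SE) with an adjusted p of 0.0532 by the edgeR quasi-likelihood test, which missed the threshold. DESeq2 gave an adjusted p of 6e-05 and called Lifr lower, as it did 151 of 55248 transcripts. The deleted genes differed between the crosses by design, Ehmt2 by -1.72 and Ezh2 by 2.39 on the log2 scale.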

How the results depend on the processing

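The number of naive factors called higher in the Ehmt2 cross was 1 in the analysis reported. It was 2 with DESeq2 and with 1 transcript per gene (Esrrb and Klf5), 3 without the filter (with Nr0b1), 4 with replicate 4 of both genotypes left out (with Zfp42, and with Nr0b1, which passed the filter through its knockouts), 0 without the comparison-set term, and 1 to 4 when single epiblasts were left out, 4 of them without control 4 or knockout 4, whose partner then carries no weight in the contrast. In the Ezh2 cross it was 0, and 1 (Esrrb) by the rule on single knockouts. No member was called lower under any alternative run. Esrrb in the Ehmt2 cross ran from 4.27 to 5.71 in log2 fold change over the single epiblasts left out, with the call kept each time. The cause of these changes was not tested. Directions turned for genes that were not called. Klf4 in the Ehmt2 cross was -0.14 without replicate 4 and ran from -0.14 to 0.92 over single epiblasts left out, Nanog ran from -0.24 to 0.079, and Tet2 was 0.083 without replicate 4 and ran from -0.62 to 0.083. In the Ezh2 cross the range was -0.12 to 0.17 for Nanog, -0.14 to 1.60 for Klf5, -0.72 to 1.59 for Tbx3 and -0.34 to 1.72 for Tfcp2l1, and without knockout 1 and control 2 Klf5 was -0.45, Tbx3 -0.56 and Zfp42 -0.027. Over all transcripts, 220 were called higher and 29 lower in the Ehmt2 cross, against 544 and 192 with DESeq2, 395 and 65 without the filter, 391 and 45 without replicate 4, 51 and 1 without the comparison-set term, 99 and 6 with a replicate block, and between 94 and 399 higher when single epiblasts were left out. In the Ezh2 cross 0 were called higher and 6 lower, against 153 and 25 with DESeq2, 20 and 8 without the filter and 23 and 6 without knockout 1 and control 2. The deleted genes kept their direction, but Ehmt2 was not called without the comparison-set term, and Ezh2 was not called with 1 transcript per gene, with summed transcripts or without any single knockout. Of 481 alternative values of single genes, 434 kept direction and side of the threshold. Same-numbered control and knockout epiblasts deviated together in part only (r = 0.0536 to 0.373 in the Ehmt2 cross and -0.114 to 0.156 in the Ezh2 cross), and not every epiblast correlated best with its own number, so the numbers were not taken as pairs. With a replicate block, 1 member was called higher in the Ehmt2 cross (Esrrb, 4.87, edgeR adjusted p = 0.0148) and 0 in the Ezh2 cross, and the calls of Elf5 and Tfap2c were lost. Depth limits Klf2, Nr0b1 and Nr5a2, whose control counts were 17 or fewer, and Esrrb in the Ezh2 cross, where controls had 5 counts or fewer.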
